A study of Mus musculus with 8 samples.

Results

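The clustered histone genes of the mouse encode the histones that package newly copied DNA. They were taken here as every gene in the deposited count tables whose symbol begins with Hist1h, Hist2h, Hist3h or Hist4h, which gave 70 of 55418 genes. By protein they comprised 6 genes for the linker histone H1, 20 for H2A, 19 for H2B, 12 for H3 and 13 for H4. By place they fell into the Hist1 cluster on chromosome 13 (56 genes), the Hist2 cluster on chromosome 3 (10 genes), the Hist3 cluster on chromosome 11 (3 genes) and the single Hist4 gene on chromosome 6. In the GENCODE M21 annotation 3 of the 70 were pseudogenes (Hist3h2bb-ps, Hist1h2aj and Hist1h2al).

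RNA was sequenced from 8 libraries of E14 cells, a mouse embryonic stem cell (ESC) line whose strain the labels give as 12910la, grown on gelatin with serum and LIF. There were 2 libraries each for control, Hira depletion, Ubn1 depletion and Ubn2 depletion, and each depletion was made with a short hairpin RNA (shRNA) cloned in the pSuper puro plasmid. Cells received 1000 ng of plasmid and, from 24 h after transfection, puromycin at 1 µg/ml for 3 days, so the groups shared the drug selection. The labels call the control cells wild type and the study's methods name a luciferase shRNA for its controls. Each depletion was a knockdown in a pool of transfected cells, and nothing in the sources says that the 2 libraries of a group came from separate cultures, so p-values measured the spread between these libraries, which may be technical.

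Most histone mRNA is made as DNA is copied in S phase. Unlike other mRNAs, the transcripts of clustered histone genes typically have no introns and no poly(A) tail. They end just past a short stem-loop, which the stem-loop binding protein (Slbp) holds during processing and translation and which marks the mRNA for decay when DNA synthesis stops. H2A, H2B, H3 and H4 form the octamer around which DNA is wound, and H1 binds the DNA between octamers. The H3.1 and H3.2 proteins of these clusters are deposited with DNA replication by the CAF-1 chaperone, whereas the Hira complex, whose subunits include Hira, Ubn1, Ubn2 and Cabin1, deposits the H3.3 variant outside replication. The deposited tables allow the question of whether the clustered genes differ in RNA level after the loss of each Hira complex subunit.

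The coding members of each type differ little in protein. The 13 H4 genes encoded 1 protein and the 12 H3 genes encoded 2, H3.1 from Hist1h3a, Hist1h3g, Hist1h3h and Hist1h3i and H3.2 from the other 8. The 18 coding H2A genes encoded 9 proteins, the 18 coding H2B genes 11 and the 6 H1 genes 6. Near-identity extended to the RNA. Each transcript was cut into overlapping windows of 100 bases. Windows that also occurred in the transcript of a gene not overlapping the member were counted as copies. Overlapping genes, which 26 members have in the count tables, were left out. A median of 32.9% of a member's windows were in copies, 21 members had under 10% of windows in copies and 25 had over 50%. How reads that match several genes were handled is not given in the sources used here, so reads of the latter group cannot be assigned to 1 gene with certainty.

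The stem-loop was searched for as a fixed 16-base pattern with fully paired stems, in a single annotated transcript of each member. A variant form, or one only in another transcript of the gene, would be missed. The stem-loop was found in 45 members. It took 8 forms, which are shown because they define this gene family and because they differ by histone type. They are written as DNA in the sense of the transcript (GRCm38), with the 4-base loop in capitals between the 6-base stems.
25 members of H1, H2A, H2B and H3: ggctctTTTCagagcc
7 members, all H4: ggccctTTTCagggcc
6 members of H1, H2B and H3: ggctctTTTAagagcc
Hist2h4 and Hist1h4i: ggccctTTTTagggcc
Hist1h4j and Hist1h4b: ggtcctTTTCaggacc
Hist1h4a: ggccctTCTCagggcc
Hist1h3g: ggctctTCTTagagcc
Hist2h2ac: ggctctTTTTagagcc
The 12 H4 transcripts that held a stem-loop carried 4 of these forms, and no form of an H4 transcript occurred in another histone type.

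The libraries were prepared with an mRNA kit, so the place where a transcript ends bears on whether it is captured. Of the 70 transcript models, 23 ran past the stem-loop by 108 to 4884 bases and 22 ended 3 to 74 bases after it. A further 17 held no match to the stem-loop pattern and ended under 100 bases after the stop codon. Another 5 coding models held no match, and 3 were pseudogenes. A poly(A) signal lay within 60 bases of the annotated end of 16 members. Of the models that ended at the stem-loop, 13 of 22 had too few counts to be tested in any comparison with control, against 3 of 23 that ran past it. These counts were not corrected for transcript length, which also differs between the classes. The part of capture and of length in this difference was not tested. A higher histone RNA level and a larger tailed or captured share of that RNA cannot be told apart in these libraries. In bulk RNA the share of cells in S phase and the RNA per cell cannot be told apart either.

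Library totals ran from 19710040 to 32706053 counts, and 3 counts corresponded to 0.0908 to 0.153 CPM, the unit in which read counts are brought to a common library total, with totals scaled by the trimmed mean of M values (TMM). Each target was lower in its own knockdown: Hira at 10.0 to 10.4 CPM against 89.4 to 97.6 in control, Ubn1 at 23.8 in both libraries against 44.1 to 53.0, and Ubn2 at 24.6 to 30.1 against 50.1 to 51.7. The 10 ESC markers summed to 7093 and 7382 CPM in control and to 6116 to 6520 CPM in the 6 depletion libraries, without overlap. After Ubn2 depletion 2 of them (Tdgf1 and Dppa5a) were called lower, against 8.75% of all genes tested. The part of these markers in the histone values was not tested. The Ubn2 depletion libraries stood apart in markers of other cells. The 12 heart and skeletal muscle markers summed to 434 and 286 CPM there and to 38.1 to 55.0 CPM in the other libraries. Of the 12, 10 were called higher and 1 (Myl7) lower against control (all genes: 9.59% and 8.75%). The cardiac actin gene Actc1 was at 49.7 to 85.3 CPM against 0.0974 to 0.189 CPM in control, and the muscle gene Csrp3 was at 3.57 to 7.999 CPM against 0 counts in both control libraries. The 9 red blood cell markers summed to 8.73 and 5.25 CPM in Ubn2 depletion against 0.614 to 1.14 elsewhere. In Ubn2 depletion replicate 2 the 15 RNAs that are made without a poly(A) tail summed to 59.3 CPM, against 4.23 to 16.1 CPM in the other 7 libraries. The part of these markers and of this library's untailed RNA in the histone values was not tested, and values without each Ubn2 library are given with the results.

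In sum, the clustered histone genes were higher after Ubn2 depletion in every histone type and not above control after Ubn1 depletion. After Hira depletion the sums of H1, H4 and H2B were higher, mostly through Hist1h1c in H1 and Hist1h4i in H4 and through Hist1h2bc in H2B. Summed over the 70 members, the 2 libraries of a group lay at 92.0 and 103 CPM for control, 148 and 145 for Hira depletion, 93.7 and 82.9 for Ubn1 depletion, 268 and 265 for Ubn2 depletion. The means were 97.7 ± 8.09 (SD, n = 2) in control, 146 ± 2.28 after Hira depletion, 88.3 ± 7.67 after Ubn1 depletion and 267 ± 2.07 after Ubn2 depletion. The sum was thus 2.73-fold the control after Ubn2 depletion and 1.499-fold after Hira depletion, with no overlap of libraries, and 0.904-fold after Ubn1 depletion, where the libraries overlapped control. These genes took a small part of each library, 0.00893 and 0.0101% of all counts in control and 0.0268 and 0.0264% after Ubn2 depletion. No p is given for a sum, since an exact permutation test of 2 libraries against 2 cannot reach a p under 0.05 (its smallest p is 1 in 3).

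By type, H1 summed to 18.8 ± 1.45 CPM in control (SD, n = 2 here and below), 33.8 ± 0.146 after Hira depletion, 19.5 ± 5.96 after Ubn1 depletion and 61.8 ± 3.62 after Ubn2 depletion. H4 was at 13.7 ± 1.02 in control, 25.9 ± 1.61 after Hira depletion, 13.5 ± 0.516 after Ubn1 depletion and 46.4 ± 0.209 after Ubn2 depletion. H2B was at 45.0 ± 6.62 in control, 65.3 ± 4.0 after Hira depletion, 40.9 ± 0.269 after Ubn1 depletion and 112 ± 4.96 after Ubn2 depletion. The other 2 types showed no such step after Hira depletion. H2A was at 11.5 ± 0.497, 12.4 ± 1.90, 8.20 ± 1.11 and 23.8 ± 0.555 CPM in the same order, and H3 at 8.66 ± 0.549, 9.20 ± 1.28, 6.24 ± 0.845 and 22.7 ± 3.06. After Ubn2 depletion the 5 types stood at 2.07-fold (H2A) to 3.38-fold (H4) of control. After Hira depletion H1, H2B and H4 stood at 1.79, 1.45 and 1.89-fold without overlap, and the H2A and H3 libraries overlapped control at 1.08 and 1.06-fold. After Ubn1 depletion both libraries lay below control in H2A (0.713-fold) and H3 (0.72-fold) and overlapped it in H1, H2B and H4.

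**Figure D1:**
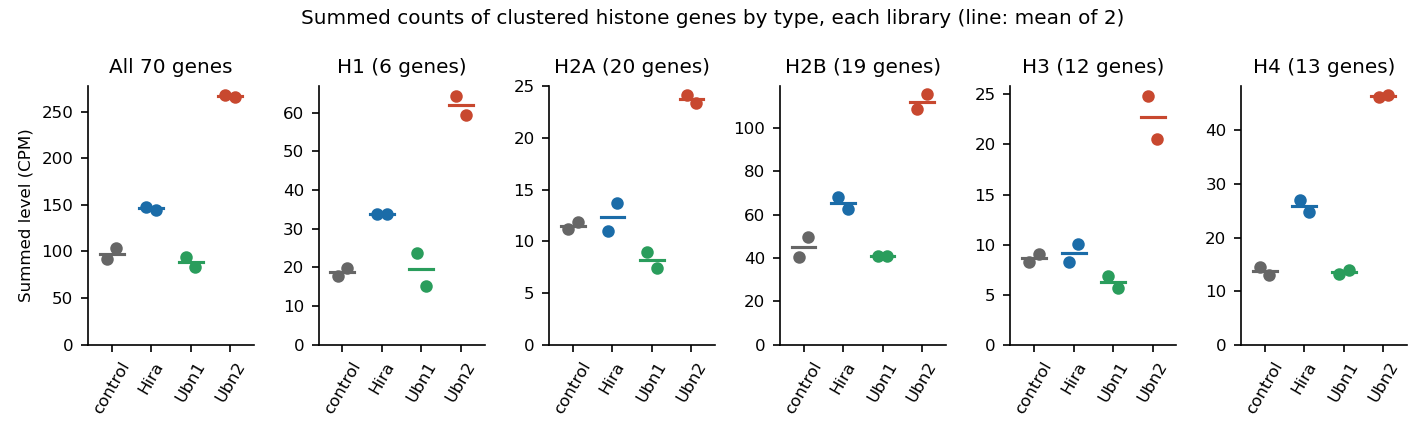
Summed level of the clustered histone genes in CPM on TMM-scaled totals, for all members and for each histone type, with 1 point for each of the 8 libraries and a line at each group mean. The 2 Ubn2 depletion libraries lay above the 2 control libraries in all 5 types, and the 2 Hira depletion libraries lay above control in H1, H2B and H4.

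A few genes made up most of each sum. Hist1h2bc (H2B) and Hist1h1c (H1) together held 53.2% of the members' CPM in control. Without them the remaining 68 genes summed to 45.8 ± 3.09 CPM in control, 60.2 ± 0.896 after Hira depletion (1.32-fold), 36.3 ± 1.89 after Ubn1 depletion (0.793-fold) and 118 ± 3.90 after Ubn2 depletion (2.58-fold). Once Hist1h4i (H4), the next most abundant, was also left out, the sum after Hira depletion was 1.09-fold the control with overlapping libraries, 41.8 ± 3.94 against 38.3 ± 3.78 CPM. The same 67 genes remained at 2.30-fold after Ubn2 depletion, 88.1 ± 1.74 CPM, and at 0.728-fold after Ubn1 depletion, 27.8 ± 2.40 CPM, both without overlap. Left without its most abundant gene, each type was still above control after Ubn2 depletion, at 3.49-fold for H1, 1.45-fold for H2A, 1.91-fold for H2B, 2.77-fold for H3 and 2.66-fold for H4. After Hira depletion H1 and H4 stayed above control in this way, at 1.30 and 1.21-fold, whereas H2B without Hist1h2bc was at 1.04-fold with overlapping libraries.

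Gene by gene, 40 of the 70 members had enough counts for edgeR's quasi-likelihood test of Ubn2 depletion against control, and 23 of them were called higher and 0 lower, with calls requiring a fold change over 1.5 and an adjusted p under 0.05. Over all 18219 genes tested, 9.59% were called higher and 8.75% lower. The 23 had log2 fold changes of 1.04 to 2.92, and the 17 tested members not called had values of -0.77 to 1.57. The count filter shaped this number: 20 of the 40 passed it only through the Ubn2 depletion libraries, which were high, and 12 of the 23 calls were among those. The 19 members that passed on their control libraries alone gave 11 of the calls. The same holds for the counts by type, cluster, block, transcript end and share of windows in copies given below. Their tested members are in part there because they were high after Ubn2 depletion. Of the 23 calls, 9 held under all 10 alternatives tried. Hist1h2al and Hist1h2bn were called under 4 of the 10 and lost under DESeq2 and whichever of the 4 libraries was left out, Hist1h1b, Hist1h3i and Hist1h4d were called under 6, and Hist2h2bb and Hist1h2be under 7. With DESeq2 the number called higher was 16, and without either Ubn2 depletion library it was 19 (without replicate 1) and 18 (without replicate 2).

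Among the linker histones, 4 of 5 tested genes rose after Ubn2 depletion, though of the 5 only Hist1h1c passed the count filter on its control libraries alone. Hist1h1c (chr13:23738808-23740367), the most abundant of them, was at 16.5 and 18.1 CPM in control, 31.6 and 32.0 in Hira depletion, 22.3 and 14.5 in Ubn1 depletion and 59.5 and 53.5 in Ubn2 depletion. Its Ubn2 and Hira depletion libraries lay above control and the Ubn1 depletion libraries spanned it. The log2 fold change after Ubn2 depletion was 1.70 ± 0.10 (SE, adjusted p = 7.79e-11). Hist1h1d was at 0.195 and 0.692 CPM in control, 0.605 and 0.759 in Hira depletion, 0.228 and 0.0768 in Ubn1 depletion and 2.25 and 2.45 in Ubn2 depletion. It rose by 2.28 ± 0.44 on the log2 scale after Ubn2 depletion (adjusted p = 3.22e-04), with control libraries that differed widely between themselves. Hist1h1a was at 0.243 and 0.314 CPM in control, 0.454 and 0.332 in Hira depletion, 0.456 and 0.307 in Ubn1 depletion and 1.29 and 1.48 in Ubn2 depletion, with a log2 change after Ubn2 depletion of 2.26 ± 0.50 (adjusted p = 0.00111). The fourth was Hist1h1b, at 1.95 ± 0.71 (adjusted p = 0.0332). The 6 H1 genes encode 6 different proteins, and all the windows of Hist1h1a and over 90% of those of Hist1h1c and Hist1h1d were free of copies, so few of their reads could match another member.

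H2A had 2 of 8 tested genes called higher after Ubn2 depletion (1 of the 4 that passed the filter on control alone), of 20 in all, and 1 of the 2 was a pseudogene, Hist1h2al, which lies apart from the main cluster on chromosome 13 (log2 change 1.45 ± 0.51, adjusted p = 0.0268). The other was Hist3h2a (chr11:58954685-58956830), at 4.14 and 4.21 CPM in control, 4.18 and 5.03 in Hira depletion, 2.51 and 2.61 in Ubn1 depletion and 13.9 and 12.4 in Ubn2 depletion. The Ubn2 depletion libraries stood well above all others, with a log2 change of 1.65 ± 0.17 (adjusted p = 2.11e-07). Its reads overlapped Trim17, a ubiquitin ligase gene on the same strand, whose counts ran parallel (102 and 164 in control, 314 and 260 in Ubn2 depletion, against 85 and 134 and 303 and 243 for Hist3h2a), and which of the genes the reads came from cannot be told apart. Hist1h2ah was at 1.27 and 1.41 CPM in control, 1.33 and 1.09 in Hira depletion, 0.912 and 0.346 in Ubn1 depletion and 2.30 and 2.40 in Ubn2 depletion. Its log2 change of 0.80 ± 0.32 after Ubn2 depletion missed the threshold (adjusted p = 0.0514). Hist1h2ae went the other way without passing the test, at 1.51 and 2.20 CPM in control, 2.27 and 2.13 in Hira depletion, 1.23 and 1.65 in Ubn1 depletion and 1.06 and 1.27 in Ubn2 depletion (log2 change -0.69 ± 0.36, adjusted p = 0.13). Every one of the 20 H2A genes had a gene annotated on the opposite strand. In 16 cases it was a short Gm44 model with 41.8 to 100% of the H2A gene's counts, and since the strand setting of the counting is not given in the sources used here, reads of the H2A gene and its partner cannot be told apart.

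H2B had 7 of 11 tested genes called higher after Ubn2 depletion, with 3 of the 5 that passed the filter on control alone. Hist1h2bc (chr13:23684199-23692908), the member with the highest level per length at 46.5 CPM per kb of exon over the 8 libraries, was at 31.9 and 37.4 CPM in control, 57.0 and 52.1 in Hira depletion, 33.8 and 33.5 in Ubn1 depletion and 87.9 and 96.5 in Ubn2 depletion. The groups other than Ubn1 depletion and control did not overlap, and the log2 change after Ubn2 depletion was 1.40 ± 0.09 (adjusted p = 1.67e-10). Its transcript model has 2 exons, and no stem-loop was found in the spliced sequence. Hist1h2bh was at 0.292 and 0.251 CPM in control, 0.817 and 0.759 in Hira depletion, 0.365 and 0.461 in Ubn1 depletion and 1.84 and 1.58 in Ubn2 depletion, and rose by 2.65 ± 0.48 on the log2 scale after Ubn2 depletion (adjusted p = 1.68e-04). Hist2h2bb was at 0.195 and 0.0629 CPM in control, 0.394 and 0.237 in Hira depletion, 0.137 and 0.269 in Ubn1 depletion and 0.782 and 0.765 in Ubn2 depletion (log2 change 2.67 ± 0.70, adjusted p = 0.00422). Both were near the limit of detection in control, where 3 counts corresponded to at most 0.153 CPM. Hist2h2bb, at 4 and 2 counts in control and 17 and 15 in Ubn2 depletion, overlaps 2 other genes. These are Gm42743 on the same strand (10 and 13, then 19 and 25) and Gm20628 on the opposite strand (7 and 2, then 24 and 24). Which of them its reads came from cannot be told apart.

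Hist1h2be was at 1.12 and 1.41 CPM in control, 1.60 and 1.04 in Hira depletion, 0.958 and 1.08 in Ubn1 depletion and 2.53 and 2.75 in Ubn2 depletion, the smallest of the called changes (1.04 ± 0.31, adjusted p = 0.0123). It overlaps Hist1h1e and Gm11398 on the same strand, which had 29.6 and 17.3% of its counts. Hist1h2bp was at 0.389 and 1.19 CPM in control, 1.24 and 0.617 in Hira depletion, 1.505 and 1.11 in Ubn1 depletion and 3.13 and 2.50 in Ubn2 depletion (1.73 ± 0.39, adjusted p = 0.00126). Of the H2B genes in the smaller clusters, Hist3h2ba was at 2.68 and 2.95 CPM in control, 2.45 and 3.04 in Hira depletion, 1.14 and 1.77 in Ubn1 depletion and 4.23 and 3.77 in Ubn2 depletion, and was called in none of the comparisons with control. Its Ubn2 depletion libraries lay above control (log2 change 0.50 ± 0.24, adjusted p = 0.107) and its Ubn1 depletion libraries below (-0.95 ± 0.32, adjusted p = 0.0612). It was called lower after Ubn1 depletion with no filter (adjusted p = 0.034), in the fit over all 8 libraries (adjusted p = 0.0493), with the replicate block (adjusted p = 0.0319) and without Ubn1 depletion replicate 2 (adjusted p = 0.0254). The remaining H2B calls after Ubn2 depletion were Hist1h2bg and Hist1h2bn.

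H3 had 5 of 9 tested genes called higher after Ubn2 depletion (3 of the 5 that passed the filter on control alone), 2 of the 4 genes for H3.1 and 3 of 5 tested genes for H3.2. Hist1h3g, which encodes H3.1 and had the highest mean CPM of the type, was at 3.12 and 2.73 CPM in control, 3.03 and 2.66 in Hira depletion, 2.87 and 2.23 in Ubn1 depletion and 7.82 and 5.76 in Ubn2 depletion. Control, Hira depletion and Ubn1 depletion overlapped, the Ubn2 depletion libraries lay above, and the log2 change was 1.22 ± 0.23 (adjusted p = 2.02e-04). Hist1h3d, an H3.2 gene, was at 0.974 and 1.23 CPM in control, 1.24 and 1.80 in Hira depletion, 1.19 and 0.845 in Ubn1 depletion and 5.29 and 5.66 in Ubn2 depletion (2.29 ± 0.27, adjusted p = 9.92e-07). The H3.2 genes of the Hist2 cluster followed. Hist2h3c1 was at 1.17 and 1.82 CPM in control, 1.27 and 0.806 in Hira depletion, 0.730 and 0.576 in Ubn1 depletion and 4.41 and 2.96 in Ubn2 depletion (1.27 ± 0.30, adjusted p = 0.00226), with near-equal counts in the same-strand gene Gm20634 that overlaps it (24 and 58 against 25 and 59 in control). Hist2h3c2 was at 0.146 and 0.189 CPM in control, 0.33 and 0.190 in Hira depletion, 0.0912 and 0.230 in Ubn1 depletion and 1.38 and 1.27 in Ubn2 depletion (2.92 ± 0.55, adjusted p = 2.58e-04), the largest called change, with 61.6% of its windows in copies. The fifth was Hist1h3i (1.99 ± 0.57, adjusted p = 0.00834). Summed, the H3.1 genes were at 4.20 ± 0.253 CPM in control and 8.79 ± 1.48 after Ubn2 depletion, and the H3.2 genes at 4.46 ± 0.802 and 13.9 ± 1.58.

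H4 had 5 of 7 tested genes called higher after Ubn2 depletion, with 3 of the 4 that passed the filter on control alone. Hist1h4i (chr13:22040636-22041362), whose transcript runs 330 bases past its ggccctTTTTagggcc stem-loop, was at 7.98 and 7.01 CPM in control, 20.5 and 16.2 in Hira depletion, 8.07 and 8.79 in Ubn1 depletion and 31.4 and 28.3 in Ubn2 depletion. Its Hira depletion libraries lay between control and Ubn2 depletion, and the log2 change after Ubn2 depletion was 2.00 ± 0.13 (adjusted p = 2.86e-10). Hist1h4h, whose model ends 46 bases past the stem-loop, was at 1.61 and 1.38 CPM in control, 1.39 and 1.28 in Hira depletion, 1.09 and 1.27 in Ubn1 depletion and 5.65 and 6.32 in Ubn2 depletion. It rose by 2.01 ± 0.25 on the log2 scale after Ubn2 depletion (adjusted p = 2.04e-06), with the other 3 groups close together. Hist1h4k was at 1.95 and 1.82 CPM in control, 2.54 and 3.37 in Hira depletion, 1.64 and 1.84 in Ubn1 depletion and 4.05 and 4.23 in Ubn2 depletion (1.14 ± 0.26, adjusted p = 0.00145). Hist1h4a was at 0.633 and 0.283 CPM in control, 0.484 and 0.806 in Hira depletion, 0.775 and 0.499 in Ubn1 depletion and 1.98 and 2.29 in Ubn2 depletion (2.29 ± 0.45, adjusted p = 3.38e-04). The fifth was Hist1h4d (1.80 ± 0.56, adjusted p = 0.0144).

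**Figure D2:**
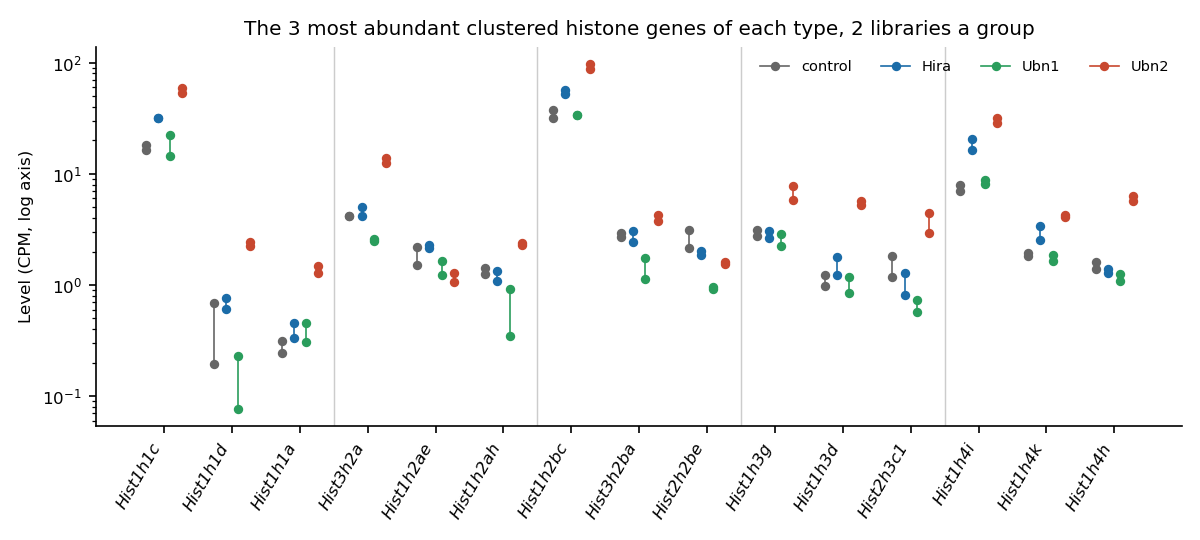
Level in CPM on TMM-scaled totals of the 3 most abundant genes of each histone type, on a log axis, with 1 point for each of the 8 libraries, coloured by group, and a line joining the 2 libraries of a group. Hist1h1c, Hist1h2bc and Hist1h4i were highest in Ubn2 depletion and second highest in Hira depletion, and Hist2h2be was lowest in Ubn1 depletion.

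**Figure D3:**
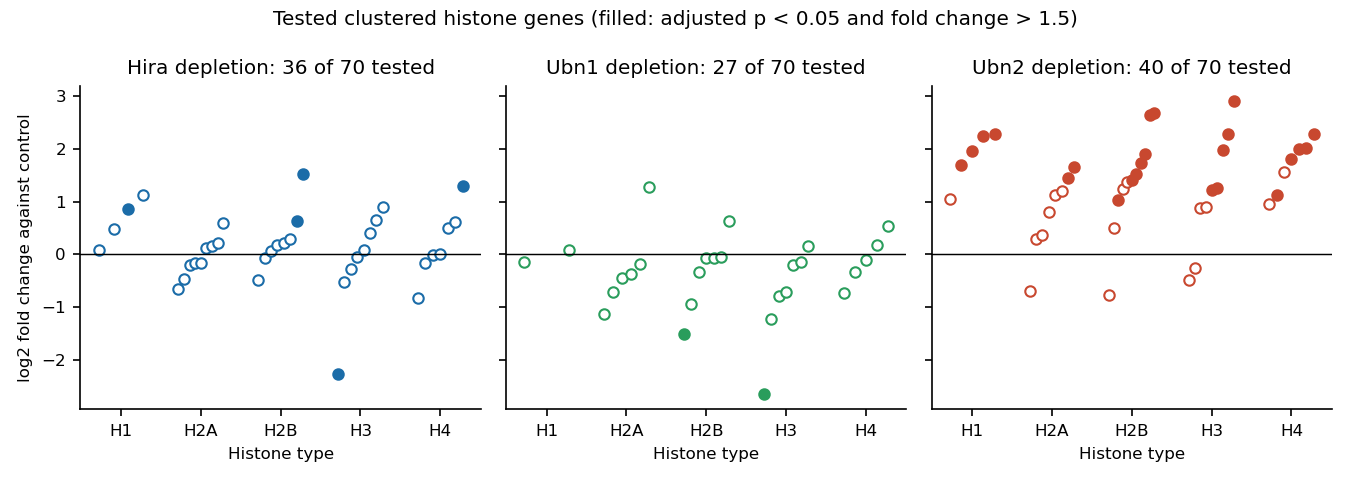
log2 fold change against control of each tested clustered histone gene after Hira, Ubn1 and Ubn2 depletion, grouped by histone type, with filled points for called genes, which have a fold change over 1.5 and an adjusted p under 0.05. Called genes numbered 23 after Ubn2 depletion, all higher, against 5 after Hira depletion and 2 after Ubn1 depletion.

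After Hira depletion 36 members were tested, of which 4 were called higher and 1 lower, against 10.8% higher and 5.4% lower over all 19035 genes tested. The share of members called was near that background. The calls took in the 3 most abundant members. Hist1h1c rose by 0.86 ± 0.11 on the log2 scale (adjusted p = 7.06e-06), Hist1h2bc by 0.63 ± 0.10 (adjusted p = 4.20e-05) and Hist1h4i by 1.29 ± 0.16 (adjusted p = 2.89e-06). Hist1h2bh was the other gene called higher (1.53 ± 0.55, adjusted p = 0.0354). These 4 were also called higher after Ubn2 depletion, a comparison that shares the control libraries. Hist1h3h was called lower, at 0.487 and 0.597 CPM in control, 0.0908 and 0.142 in Hira depletion, 0.0456 and 0.115 in Ubn1 depletion and 0.230 and 0.561 in Ubn2 depletion (log2 change after Hira depletion -2.26 ± 0.69, adjusted p = 0.0149). Its counts were 10 and 19 in control and 3 and 3 in Hira depletion, and 92.0% of its windows occurred in copies. Hist1h1c and Hist1h4i were called under all 10 alternatives tried, whereas Hist1h2bc was not called without control replicate 1 or without Hira depletion replicate 1, and Hist1h2bh and Hist1h3h had too few counts for the minimum of 10 in every library and were lost under DESeq2 and whichever of the 4 libraries was left out.

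After Ubn1 depletion 27 members were tested, with 0 called higher and 2 lower, against 1.53% higher and 1.56% lower over all 18373 genes tested. Hist2h2be (chr3:96221119-96223738), an H2B gene whose transcript model holds no stem-loop, was at 2.14 and 3.14 CPM in control, 2.03 and 1.85 in Hira depletion, 0.958 and 0.922 in Ubn1 depletion and 1.61 and 1.53 in Ubn2 depletion. All 3 depletions lay below control and Ubn1 depletion lay lowest, with a log2 change of -1.51 ± 0.35 (adjusted p = 0.00567), against -0.48 ± 0.30 (adjusted p = 0.234) after Hira depletion and -0.77 ± 0.31 (adjusted p = 0.0538) after Ubn2 depletion. The other was Hist1h3h (-2.66 ± 0.80, adjusted p = 0.0361), with 1 and 3 counts. Neither call held under DESeq2, which called 0 members, and Hist2h2be was also not called without control replicate 2. Hist1h3h was called under 3 of the 10 alternatives and was also lost with no filter and whichever library was left out. The 3 abundant genes showed no such change: Hist1h1c was at 0.08 ± 0.16 (adjusted p = 0.823), Hist1h2bc at -0.05 ± 0.11 (adjusted p = 0.851) and Hist1h4i at 0.17 ± 0.18 (adjusted p = 0.625).

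The depletions were then set against each other without the control libraries. Between Hira and Ubn2 depletion, 39 members were tested and 1 was higher and 20 lower in Hira depletion (all genes tested: 12% higher and 5.61% lower). Between Ubn1 and Ubn2 depletion, 40 were tested and 0 were higher and 28 lower in Ubn1 depletion (all genes: 4.09% and 4.61%). Between Hira and Ubn1 depletion, 31 were tested and 7 were higher and 0 lower in Hira depletion (all genes: 9.52% and 3.16%). Of the 23 genes called higher after Ubn2 depletion against control, 19 were called directly above Hira depletion and 22 directly above Ubn1 depletion. These counts use the same Ubn2 libraries as the comparison with control. The count filter shaped the direct comparisons too. Of the 39 members tested between Hira and Ubn2 depletion, 38 passed it on the Ubn2 libraries alone. For Ubn1 against Ubn2 depletion it was 39 of 40, and 0 passed only through the other depletion in either. Tested members are in part there because they were high after Ubn2 depletion, as with Hist1h1d. Between Hira and Ubn1 depletion, 8 of the 31 passed only through Hira depletion, with 1 of the 7 calls. The totals were sensitive to the tool and the library: called members numbered 13 with DESeq2 and 13 to 15 without 1 library between Hira and Ubn2 depletion, 16 and 18 to 24 between Ubn1 and Ubn2 depletion, and 3 and 3 to 5 between Hira and Ubn1 depletion.

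Among the abundant genes the order was Ubn2 depletion, then Hira depletion, then Ubn1 depletion. Hist1h4i was lower in Hira than in Ubn2 depletion by a log2 difference of -0.68 ± 0.13 (adjusted p = 7.66e-04) and higher in Hira than in Ubn1 depletion by 1.14 ± 0.16 (adjusted p = 1.19e-05). Hist1h1c and Hist1h2bc were higher in Hira than in Ubn1 depletion by 0.80 ± 0.15 (adjusted p = 2.64e-04) and 0.71 ± 0.11 (adjusted p = 2.31e-05). The widest differences from Ubn2 depletion were those of Hist2h3c2 and Hist1h4h for Hira depletion (-2.25 ± 0.50 and -2.14 ± 0.26, adjusted p = 0.00292 and 2.63e-05) and of Hist1h1d and Hist2h3c2 for Ubn1 depletion (-3.95 ± 0.53 and -2.96 ± 0.58, adjusted p = 8.01e-05 and 0.00204). The smallest called differences between Ubn1 and Ubn2 depletion were those of Hist1h2bp (-1.11 ± 0.33, adjusted p = 0.0268) and Hist1h4k (-1.24 ± 0.27, adjusted p = 0.00456), of which the former held under 6 of 10 alternatives and the latter under all 10. Hist1h1d was also higher in Hira than in Ubn1 depletion, by 2.17 ± 0.67 (adjusted p = 0.0193), from 5 and 2 counts in Ubn1 depletion. That call held under 5 of 10 alternatives and was lost under DESeq2 and without Hira depletion replicate 1, Hira depletion replicate 2 or Ubn1 depletion replicate 2. Hist1h2ae was the exception in direction, higher in Hira than in Ubn2 depletion by 0.93 ± 0.33 (adjusted p = 0.0418), a call that held under 4 of 10 alternatives and was lost under DESeq2, with the replicate block and whichever library was left out. It had counts that paralleled those of its opposite-strand partner Gm44394.

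Along chromosome 13 the Hist1 genes form blocks separated by more than 100 kb, of 19 genes (chr13:21715763-21837530), 5 genes (chr13:22035164-22043676) and 29 genes (chr13:23531050-23764406), with the testis genes Hist1h2ba and Hist1h2aa and the pseudogene Hist1h2al lying apart. After Ubn2 depletion 5 of 8 tested genes of the first block, 1 of 2 of the next and 12 of 22 of the largest were called higher. Their sums were at 5.88 ± 1.43 CPM in control and 14.4 ± 0.535 after Ubn2 depletion, 9.37 ± 0.584 and 32.7 ± 2.23, and 69.2 ± 5.94 and 192 ± 1.68, so genes called higher lay in each block. The testis pair was at or near 0 counts in every library, with a group mean of at most 0.0768 CPM. Over whole clusters, Hist1 went from 84.8 ± 6.89 to 240 ± 0.0971 CPM, Hist2 from 5.43 ± 0.589 to 9.03 ± 1.02 and Hist3 from 7.01 ± 0.271 to 17.3 ± 1.27 after Ubn2 depletion. The single Hist4 gene was at 0.483 ± 0.339 CPM in control and 0.173 ± 0.115 after Ubn2 depletion, 0.359-fold, with overlapping libraries. Hist2 and Hist3 were lower after Ubn1 depletion, at 2.56 ± 0.310 and 4.08 ± 0.419 CPM, with no overlap with control. After Hira depletion they were at 4.78 ± 0.388 and 7.35 ± 1.01, and Hist1 at 134 ± 3.13.

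**Figure D4:**
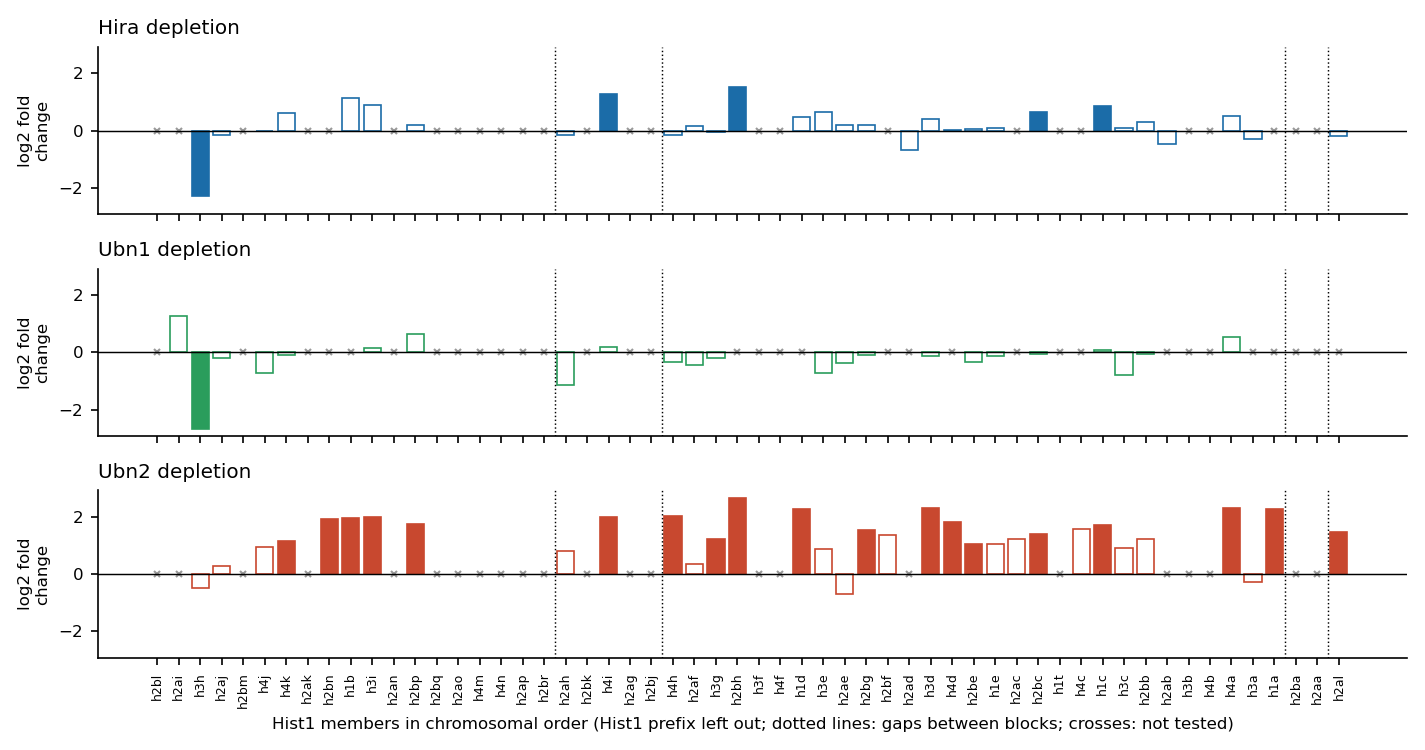
log2 fold change against control (bars) of the tested Hist1 genes in their order along chromosome 13, after Hira, Ubn1 and Ubn2 depletion, with dotted lines between blocks, filled bars for called genes and crosses for genes not tested. Genes called higher after Ubn2 depletion (19 of 33 tested Hist1 genes) lay in each block that had a tested gene.

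The differences were also read by transcript end and by uniqueness, which bear on how the counts were made. After Ubn2 depletion 12 of 19 tested genes whose models run past the stem-loop were called higher, and 2 of 7 that end at it. The calls took in 6 of 9 genes with short models and no match, and 2 of 3 other coding genes with no match. The remaining call was among 2 tested pseudogenes. The members that end at the stem-loop summed to 8.53 ± 0.0573 CPM in control, 8.51 ± 1.25 after Hira depletion, 6.22 ± 1.52 after Ubn1 depletion and 19.2 ± 0.447 after Ubn2 depletion. The members that run past it summed to 43.6 ± 2.57, 71.3 ± 0.696, 39.6 ± 4.33 and 134 ± 7.92 CPM. Both classes were above control after Ubn2 depletion without overlap. After Hira depletion the members that run past the stem-loop were above control and those that end at it overlapped control, and the former class holds Hist1h1c and Hist1h4i, which went from 17.3 to 31.8 and from 7.50 to 18.4 CPM and so made up most of its difference, with 3 of 17 tested members called. Of the 13 tested members with under 10% of windows in copies, 9 were called higher after Ubn2 depletion, and this class summed to 31.9 ± 3.11, 47.1 ± 1.53, 27.4 ± 5.47 and 88.6 ± 4.41 CPM in control, Hira, Ubn1 and Ubn2 depletion, 2.77-fold the control in the last. The class with under 10% in copies includes Hist3h2a and Hist2h2bb, both called, whose reads cannot be told apart from those of overlapping genes. Hist3h2a had a mean of 4.17 CPM in control and 13.2 after Ubn2 depletion, and Hist2h2bb 0.129 and 0.773. The count filter shaped the tested members of these classes as well, whereas the sums take in all members of a class.

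Promoter sequence was available from RefSeq for 62 of the 70 members, as the 250 bases before and 50 bases after the start. It was searched for 5 short motifs, on both strands except for the TATA box. The CCAAT box was in 85.5% of members and 41.1% of all 27025 promoters, and in every H1, H2A, H2B and H3 promoter against 25% of those of H4. The octamer ATTTGCAT, bound by Oct factors, was in 22.6% of members and 1.97% of all promoters, with 38.9% of H2A, 43.8% of H2B and 0% of the other types. TATAAA on the gene strand was in 48.4% against 9.77%. AAACACA, an element known from H1 promoters, was in 83.3% of H1 genes, 14.5% of all members and 8.22% of all promoters. TTTCGCGC, a form of the E2F site, was in 14.5% of members and 0.374% of all promoters. Many H2A and H2B genes lie head to head, so their windows overlap and share matches. The promoters of 1 gene of each type that was called higher after Ubn2 depletion are printed to show these elements, each as the 250 bases before the start in build GRCm38.p6, 5′ to 3′ on the gene's strand, with matches to any of the 5 motifs in capitals (a match on the other strand reads as its reverse complement). Hist1h2be has a further start in RefSeq, and the window of the start nearest its coding sequence is shown.
Hist1h1c, chr13:23738557-23738806, plus strand: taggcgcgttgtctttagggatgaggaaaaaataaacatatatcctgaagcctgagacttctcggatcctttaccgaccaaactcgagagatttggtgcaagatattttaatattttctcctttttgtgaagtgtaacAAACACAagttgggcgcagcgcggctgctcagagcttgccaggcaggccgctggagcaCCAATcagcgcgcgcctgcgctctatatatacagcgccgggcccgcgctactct
Hist3h2a, chr11:58954435-58954684, plus strand: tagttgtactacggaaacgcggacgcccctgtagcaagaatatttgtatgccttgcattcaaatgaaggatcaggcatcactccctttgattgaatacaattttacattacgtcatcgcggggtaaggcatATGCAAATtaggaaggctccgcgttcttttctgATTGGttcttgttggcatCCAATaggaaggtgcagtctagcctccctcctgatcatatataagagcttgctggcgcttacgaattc
Hist1h2be, chr13:23585971-23586220, minus strand: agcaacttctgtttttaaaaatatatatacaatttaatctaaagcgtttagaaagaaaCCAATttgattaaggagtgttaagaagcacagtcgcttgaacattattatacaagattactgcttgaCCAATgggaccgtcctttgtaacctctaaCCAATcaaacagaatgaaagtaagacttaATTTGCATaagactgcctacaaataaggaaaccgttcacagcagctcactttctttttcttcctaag
Hist1h3g, chr13:23535168-23535417, plus strand: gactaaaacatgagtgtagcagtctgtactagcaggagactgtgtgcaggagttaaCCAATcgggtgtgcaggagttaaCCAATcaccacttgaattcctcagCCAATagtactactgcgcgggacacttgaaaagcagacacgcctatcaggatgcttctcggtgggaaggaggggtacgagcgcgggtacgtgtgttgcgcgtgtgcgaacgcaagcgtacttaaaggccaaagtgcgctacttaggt
Hist1h4i, chr13:22041363-22041612, minus strand: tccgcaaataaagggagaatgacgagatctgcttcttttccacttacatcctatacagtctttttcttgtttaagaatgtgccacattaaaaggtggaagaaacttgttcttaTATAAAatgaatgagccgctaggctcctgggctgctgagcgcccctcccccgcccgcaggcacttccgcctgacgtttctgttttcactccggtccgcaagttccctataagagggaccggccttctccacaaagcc
The Hist1h1c promoter shows the AAACACA element upstream of a CCAAT box, those of Hist3h2a and Hist1h2be an octamer beside CCAAT boxes, that of Hist1h3g a series of CCAAT boxes, and that of Hist1h4i a TATAAA match and no CCAAT. None of the 5 motifs was found in all 5 of these windows, which says only that these letters are not there.

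The genes that make, process and store histones were measured beside the clustered genes, and where any were called their share was near that over all genes tested. Of the 12 genes for histone mRNA transcription and 3′ processing, which include Npat, the activator of histone gene transcription, and Slbp, 0 were called in any comparison with control. Slbp was at 114.8 to 115.2 CPM after Ubn2 depletion and 125 to 132 CPM in control (log2 change -0.16 ± 0.07, adjusted p = 0.0587). Of the 8 genes for histone mRNA decay, only the exonuclease gene Dis3l2 was called, lower after Ubn2 depletion (-0.67 ± 0.11, adjusted p = 3.65e-05). Of the 13 chaperones of newly made histones, Asf1a, which hands H3 and H4 to CAF-1 and Hira, rose after Ubn2 depletion (0.67 ± 0.10, adjusted p = 1.24e-05) and the CAF-1 subunit gene Chaf1b fell after Hira depletion. Of the 10 replication-independent histone genes, H1fx rose after Hira depletion (0.71 ± 0.10, adjusted p = 1.97e-05) and 0 were called after Ubn1 or Ubn2 depletion. H3f3a and H3f3b, which encode H3.3, were at 395 to 407 and 501 to 538 CPM in control and 451 to 454 and 688 to 706 CPM after Ubn2 depletion, where the H3f3b change of 0.42 ± 0.07 (adjusted p = 7.61e-05) stayed under the fold limit.

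Genes that mark the cell cycle stages were measured beside the histone genes. The 24 S phase genes summed to 6477 and 6568 CPM in control, 4512 and 4891 in Hira depletion, 6390 and 6821 in Ubn1 depletion and 6130 and 6133 in Ubn2 depletion. They were lower in Hira depletion, with 6 of 24 called lower and 0 higher (all genes: 5.4% lower and 10.8% higher). Among the 6 were the replication clamp Pcna (-0.69 ± 0.07, adjusted p = 5.80e-07), the helicase subunit Mcm6 (-0.76 ± 0.07, adjusted p = 1.39e-07) and the helicase loader Cdc6 (-0.88 ± 0.08, adjusted p = 1.03e-07). After Ubn2 depletion 0 of the 24 were called, with a median log2 change of -0.08. Of the 20 G2 and M phase genes 1 (Bub1) was called lower after Hira depletion, against 5.4% of all genes tested. After Ubn2 depletion 1 (Ube2c) was called higher, against 9.59%. The 13 markers of 2-cell-like cells, a rare state of ESC cultures, summed to 9.98 and 4.93 CPM in control, 34.5 and 25.9 in Hira depletion, 20.97 and 22.1 in Ubn1 depletion and 35.0 and 49.8 in Ubn2 depletion. Of these, 8 of 8 tested genes were called higher after Hira depletion, 5 of 8 after Ubn1 depletion and 9 of 9 after Ubn2 depletion. Over all genes tested, 10.8%, 1.53% and 9.59% were called higher in the same order. Of the 8 fibroblast markers 6 were tested after Ubn2 depletion, with 3 called higher and 1 lower (all genes: 9.59% and 8.75%). Of the 8 primitive endoderm markers 7 were tested there and 0 were called. The part of the cell cycle stages and of the muscle, red blood cell, fibroblast and 2-cell-like markers in the histone differences was not tested.

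**Figure D5:**
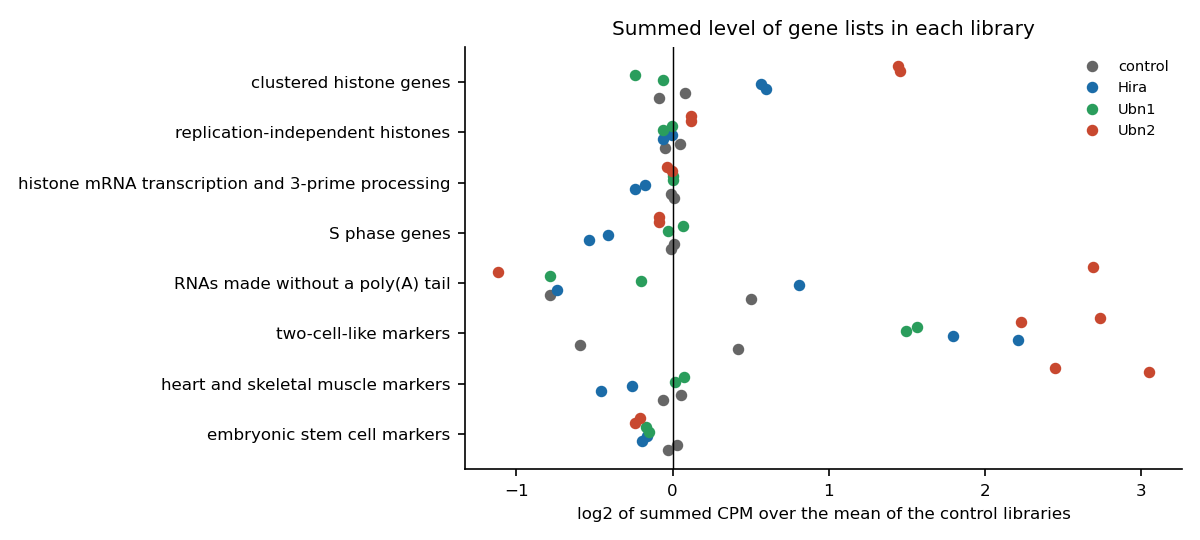
log2 of the summed CPM over the mean of the control libraries, for the clustered histone genes and 7 gene lists measured beside them, in each of the 8 libraries. The histone sum was highest in the Ubn2 depletion libraries, the S phase sum lowest in the Hira depletion libraries, and the muscle sum highest in the Ubn2 depletion libraries.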

How the data were processed

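RNA from 8 libraries (2 each for control, Hira, Ubn1 and Ubn2 depletion) was prepared with an mRNA-seq kit. The authors deposited 3 tables of raw read counts per gene, and the submitters' processing notes name Trim Galore, STAR, featureCounts and GRCm38. The settings for strand, overlapping genes and multi-mapped reads are not given in the sources used here. Each table paired a depletion with the control libraries, whose values were identical in the 3 tables. Library totals were 19710040 to 32706053 counts, and levels near 3 counts are limited by counting error. Genes were filtered with filterByExpr, scaled by TMM and tested 2 against 2 with edgeR 4.0.16 (glmQLFit and glmQLFTest, R 4.3.3), with Benjamini-Hochberg adjustment over all genes tested. Calls required a fold change over 1.5 with adjusted p under 0.05. The standard error is the absolute log2 change divided by the square root of F. Scripts were tested on simulated data. Summed levels are CPM with no test.

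Members and gene lists were chosen with earlier results of these data known. Genes named with values were the 3 most abundant members of each histone type, the 4 highest and the 4 lowest called changes of each comparison with control and the 2 highest and 2 lowest called in each direct comparison. From each other list up to 3 genes with the smallest adjusted p were eligible. Genes outside this rule that complete a count of calls were named after their values were seen. Alternatives were DESeq2 1.42.0, its size factors, library totals alone, adjusted p alone, no filter, a minimum of 10 counts, a fit over all 8 libraries, a replicate block, and each library left out. Transcript ends, stem-loops and copies came from GENCODE M21 and promoters from RefSeq (GRCm38.p6).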

Additional observations from a re-analysis of the deposited data

Results flagged for a closer look

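Differences between depletions, tested directly without the control libraries, were the results flagged here. Between Hira and Ubn2 depletion 1 of 39 tested clustered histone genes was higher and 20 lower in Hira depletion (all genes: 12% and 5.61%). Between Ubn1 and Ubn2 depletion 28 of 40 were lower in Ubn1 depletion (all genes: 4.61%). Between Hira and Ubn1 depletion 7 of 31 were higher in Hira depletion (all genes: 9.52%). Members tested against Ubn2 depletion were in part there because they were high in its libraries. With DESeq2 13, 16 and 3 members were called in these comparisons, and 13 to 15, 18 to 24 and 3 to 5 without 1 library. For Hira against Ubn2 depletion the log2 differences of the genes named by the rule were 0.93 for Hist1h2ae (called under 4 of 10 alternatives), -0.68 for Hist1h4i, -2.25 for Hist2h3c2 and -2.14 for Hist1h4h. For Ubn1 against Ubn2 depletion they were -1.11 for Hist1h2bp, -1.24 for Hist1h4k, -3.95 for Hist1h1d and -2.96 for Hist2h3c2. For Hira against Ubn1 depletion they were 2.17 for Hist1h1d (called under 5 of 10), 1.14 for Hist1h4i, 0.71 for Hist1h2bc and 0.80 for Hist1h1c. Groups of 2 libraries are too small for a test of single outlying libraries.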

How the results depend on the processing

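The sum over all members kept its direction under every alternative run. Its log2 ratios were 1.37 to 1.54 for Ubn2, 0.50 to 0.69 for Hira and -0.24 to -0.06 for Ubn1 depletion against control. Of the members, these runs left out only Hist1h2bc. Without Hist1h2bc and Hist1h1c the Hira ratio was 0.396. Without Hist1h4i as well it was 0.128 with overlapping libraries, and the Ubn2 and Ubn1 ratios were 1.20 and -0.458. Of 105 recomputed sums by type, 9 moved by more than the spread between libraries and 0 reversed. Counts of called members moved more. With DESeq2 the members called fell from 5 to 3 (Hira against control), 2 to 0 (Ubn1 against control), 21 to 13 (Hira against Ubn2), 28 to 16 (Ubn1 against Ubn2) and 7 to 3 (Hira against Ubn1). With at least 10 counts in every library, fewer genes were tested and the counts were 3 for Hira and 13 for Ubn2 depletion against control, the latter with 12 higher and 1 lower (Hist2h2be), and 14 for Ubn1 against Ubn2 depletion. One fit over all 8 libraries called 4 members for Ubn1 depletion against control. Leaving out 1 library at a time gave 2 to 4 members for Hira, 0 to 2 for Ubn1 and 18 to 20 for Ubn2 depletion against control, and 13 to 15, 18 to 24 and 3 to 5 in the direct comparisons in the order above; the lone library was assumed to vary like the other group.

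With the replicate block the counts were 5, 3, 23, 18, 30 and 5 in the same order. Same-numbered libraries did not deviate together (correlations of -0.0795 to 0.0774 over the 6 pairs of groups), so the numbers were not taken as pairs. Of the 23 genes called after Ubn2 depletion, 9 were called under all 10 alternatives, and 15 wherever they were tested. Of 959 log2 fold changes of named members recomputed under an alternative, 70 lost the call and 13 gained it. In 0 did the direction change where the gene was called in the main fit or the alternative. Changes of direction without a call were not counted. With 2 libraries a group and 20 members under 10 counts in every library, differences in the scarcer genes were not detectable at this depth.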
